A study of Mus musculus with 12 samples.

Results

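The genes described here are 41 interferon-stimulated genes, followed in the lens cells (LCs) that stay on the lens capsule after cataract surgery in mice. They were taken from a list of gene symbols, which was drawn up with earlier results of these data known, and each of the 41 symbols matched exactly 1 of the 45859 genes of the deposited tables. The study removed the fiber cells of mouse lenses through an incision in the cornea and measured the RNA of the capsule with its attached LCs at 0 h or 24 h post cataract surgery (PCS). It compared wild type (WT) lenses with lenses that lack β8 integrin, a receptor subunit that activates latent TGF-β (β8ITG-cKO, called cKO below). WT mice were of the strain C57BL/6. The cKO mice were of a mixed C57BL/6, 129S1/Sv background and carried floxed Itgb8 alleles with MLR10-Cre, a transgene that removes floxed DNA in the epithelium and the fibers of the embryonic lens. Every mouse was an adult of 2 months and had surgery, and each of the 4 conditions had 3 libraries, each made from pooled capsules, so that 12 libraries were measured in all. Genotype and strain background changed together in these mice, so their effects cannot be told apart.

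Interferons are secreted proteins that warn cells of infection or damage. Type I interferons bind a receptor of IFNAR1 and IFNAR2, whose kinases JAK1 and TYK2 switch on a complex, with STAT2 and IRF9 among its parts, that binds the interferon-stimulated response element in the promoters of its target genes. Type II interferon (IFN-γ) signals through IFNGR1 and IFNGR2 to factors that bind the gamma-activated site. The products of the target genes sense foreign nucleic acids, block translation and viral release, tag proteins with the ubiquitin-like ISG15, or attack the membranes around intracellular pathogens.

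The promoters of the members were read first, because the members were grouped by a response and not by a shared sequence. RefSeq promoter windows (GRCm38.p6), from 250 bases before a transcript start to 50 after it, were found for 32 of the 41 members. The core of the interferon-stimulated response element was searched as GAAA followed by GAAA with any 2 bases (NN) between, and the gamma-activated site as TTCNNNGAA, each on both strands. At least 1 match to the first was held by 18 of the 32 members (56.2%), against 3.99% of 27025 genes with a window. The second was matched in 10 of the 32 members (31.2%), against 9.55% of all genes. Of the 32 members, 7 held both motifs, 3 held only the gamma-activated site, and 11 held neither, Irf7, Irf9, Oasl1, Oasl2, Xaf1, Ifi44 and Ifi47 among them. For 15 of the 18 members with a response element core it lay before the transcript start, and for Ifih1, Ddx58 and Eif2ak2 it lay after it. In Bst2, 1 core overlaps a match to the gamma-activated site. A match of letters is a description and not a shown binding site. No window was found for Dhx58, Zbp1, Mx1, Mx2, Oas2, Usp18, Parp9, Parp14 and Rtp4.

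The stretches around the core are shown for 8 members, so that promoters can be set beside values: among the members with a core before the start that were called (as defined further on) over time in WT or between genotypes at 24 h PCS, these had the largest differences between genotypes at 24 h. They run 5′ to 3′ on the strand of the gene, in coordinates of GRCm38.p6, and the capitals mark matches to that core or its reverse complement. All 8 stretches end before the transcript start.
Rsad2, chr12:26456538-26456597, reverse strand: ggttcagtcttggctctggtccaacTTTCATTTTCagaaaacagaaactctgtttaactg
Ifit3, chr19:34583382-34583441, forward strand: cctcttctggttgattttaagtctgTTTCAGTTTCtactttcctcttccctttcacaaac
Ifit1, chr19:34640779-34640838, forward strand: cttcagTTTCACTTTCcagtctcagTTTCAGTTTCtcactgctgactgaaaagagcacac
Isg15, chr4:156200850-156200909, reverse strand: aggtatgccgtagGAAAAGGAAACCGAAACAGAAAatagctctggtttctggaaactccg
Oas1a, chr5:120907526-120907564, reverse strand: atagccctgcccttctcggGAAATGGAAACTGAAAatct
Gbp2, chr3:142620579-142620638, forward strand: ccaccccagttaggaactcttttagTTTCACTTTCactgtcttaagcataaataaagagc
Irgm2, chr11:58214888-58214947, forward strand: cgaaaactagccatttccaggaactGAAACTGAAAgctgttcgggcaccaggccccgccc
Stat2, chr10:128270251-128270310, forward strand: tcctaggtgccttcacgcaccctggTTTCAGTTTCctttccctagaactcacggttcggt
Counted from the first transcribed base as 0, the core nearest the start, around which each stretch was drawn, spans -120 to -111 in Rsad2, -122 to -113 in Ifit3, -85 to -76 in Ifit1, -66 to -57 in Isg15, -14 to -5 in Oas1a, -59 to -50 in Gbp2, -64 to -55 in Irgm2 and -222 to -213 in Stat2. Isg15 and Oas1a hold overlapping cores, Ifit1 holds a pair of separate cores, and the window of Ifit3 holds another core that starts before the stretch shown.

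**Figure D1:**
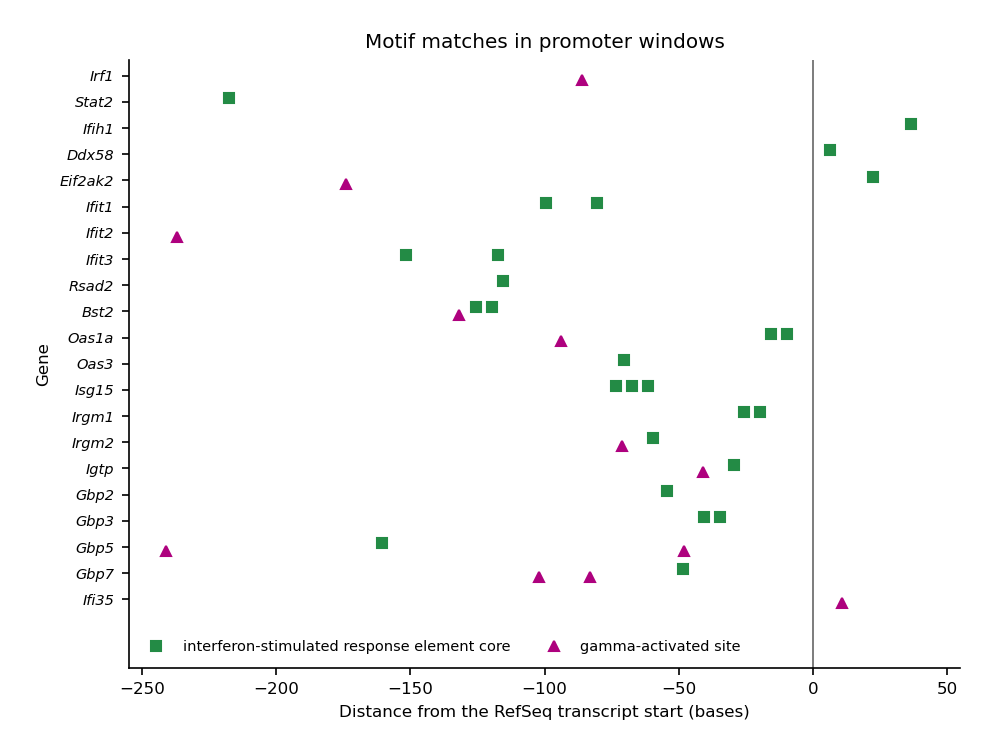
Distance in bases (x axis) of each motif match from the transcript start in the RefSeq promoter windows of the members that hold a match (y axis). Squares are cores of the interferon-stimulated response element and triangles are gamma-activated sites. For 15 members a square lies before the start, and those of Ifih1, Ddx58 and Eif2ak2 lie after it.

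Values are FPKM, fragments scaled for transcript length and for the number mapped, as the authors deposited them. Summed FPKM ran from 446531 to 740140 per library and the 10 highest genes held 36.0% to 49.6% of the sum, while read counts were not used here, so that the depth is unknown. The gene-level FPKM of Itgb8, in which only a floxed exon is deleted, were 8.38 to 9.58 in WT and 9.28 to 11.8 in cKO at 24 h and do not separate the labels. Lens epithelial markers such as Pax6 and Foxe3 were high in every library (summed level over 6 genes 208 to 561 FPKM). A value of 0 can be a failed estimate in such tables and is given as listed. The samples hold more than LCs. Summed over 10 photoreceptor genes, retinal transcripts reached 864 to 1025 FPKM in cKO at 24 h against 77.6 to 145 in WT at 24 h, and 1207 in WT 0 h replicate 2. The photoreceptor values move with the genotype at 24 h, and their part in the results was not tested. In such bulk samples, fewer cells of a type and less RNA per cell cannot be told apart.

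From 0 h to 24 h PCS, most of the interferon-stimulated genes rose in both genotypes. A gene is called here when limma-trend on log2(FPKM + 1) gave a Benjamini-Hochberg adjusted p of at most 0.05 over all genes tested, and its group means differed by over 2-fold and by over 2 FPKM, with at least 2 FPKM in 1 group. In WT LCs 29 members were called higher and 0 lower, where 10.3% of the 15146 genes tested were called higher and 3.92% lower. In cKO LCs 24 members were called higher and 0 lower, where 11.3% of 15237 genes were called higher and 3.77% lower. The tests took in genes whose mean over the 6 libraries compared reached 0.5 FPKM, which 38 members passed in WT and 37 in cKO. Of these, 12 in WT and 10 in cKO passed only through the 24 h libraries and had to differ. In both genotypes these were Ifih1, Zbp1, Rsad2, Oas1a, Oas2, Oasl1, Gbp5 and Rtp4. In WT they also included Dhx58, Isg15, Gbp7 and Ifi44, and in cKO Cmpk2 and Mx2. Their changes over time, given further on, are a description and not support. The counts are therefore also given for the members that reached 0.5 FPKM at both times: 22 of 26 were called higher in WT and 22 of 27 in cKO.

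The median change of the members tested was 1.29 on the log2(FPKM + 1) scale in WT, beside a median of 0.16 over all genes tested, and 1.25 in cKO, beside 0.23. Over all 41 members with no filter, the lowest 24 h value exceeded the highest 0 h value for 37 members in WT and for 40 in cKO. Among the members tested it did so for 34 of 38 in WT and 36 of 37 in cKO. Among all genes tested such a separation was seen for 31.3% in WT and 42.9% in cKO, and the opposite one for 15.6% and 14%. Since the median of all genes itself moved up, each library was also scaled to a common median. Then 23 members were called higher in WT and 22 in cKO, with all genes called 976 higher and 953 lower in WT (1566 and 593 as deposited) and 1161 higher and 876 lower in cKO (1719 and 575 as deposited). The 0 h and 24 h libraries of a genotype also enter the comparisons between genotypes given further on, so the comparisons are not independent of each other.

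**Figure D2:**
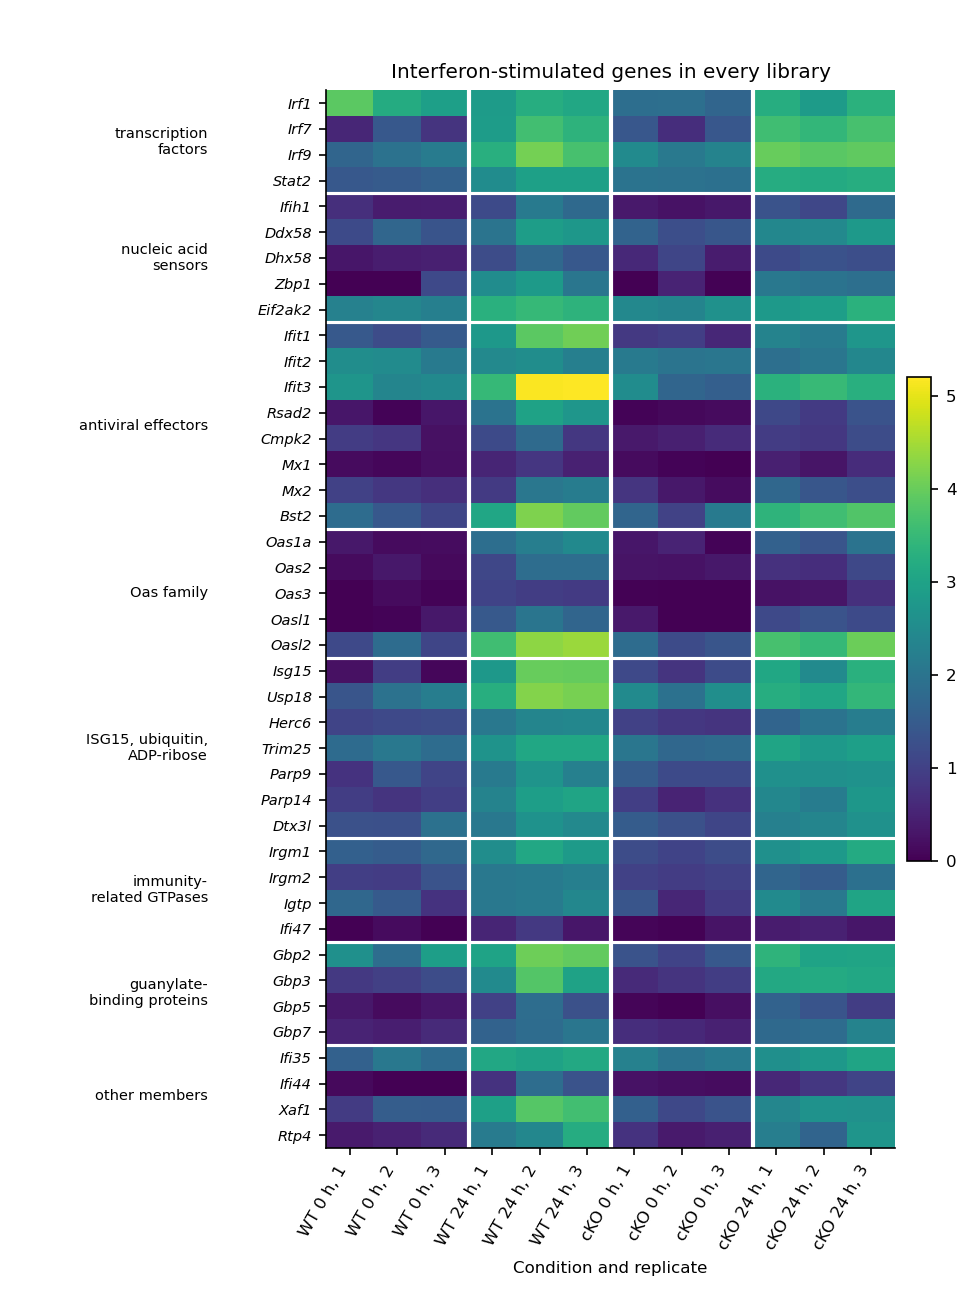
Level of each of the 41 members (rows, grouped by role) in each of the 12 libraries (columns, by condition and replicate), as log2(FPKM + 1) in color. The 24 h columns are brighter than the 0 h columns for nearly all rows, Ifit2 and Irf1 in WT excepted, and WT 24 h replicate 1 is darker than replicates 2 and 3 for most rows.

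Within WT at 24 h the libraries were uneven. Replicate 1 was the lowest of the 3 for 34 of the 41 members (82.9%), against 28.9% of 14749 genes of at least 0.5 FPKM, and the mean of replicates 2 and 3 was a median of 1.55 times replicate 1 over the members, against 0.9996 times over all genes. The summed level of the 41 members was 176 FPKM in that library, 323 and 297 FPKM in the other two, 179 to 225 FPKM in cKO at 24 h, 64.5 to 66.4 in WT at 0 h and 45.8 to 63.1 in cKO at 0 h. The same library also had the lowest hemoglobin levels of its group (summed level of 5 red blood cell genes 36.0 FPKM, against 220 and 170) and the highest summed level of 9 neutrophil genes (64.5 FPKM, against 45.5 and 49.0). Without it, 32 members were called higher and 0 lower over time in WT, where 1546 of 15156 genes were called higher and 583 lower. The comparisons between genotypes are given with and without it. The library was picked out by the values of the members themselves. Leaving it out therefore raises the WT 24 h means of most members by construction, and counts without it are a description and not support.

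The transcription factors that carry the response were nearly all higher at 24 h. Irf7, the factor that amplifies type I interferon production, had 0.466, 1.72 and 0.709 FPKM at WT 0 h, 6.36, 11.4 and 9.30 at WT 24 h, 1.66, 0.614 and 1.67 at cKO 0 h and 11.1, 9.87 and 11.96 at cKO 24 h. Irf9, a DNA-binding part of the complex that type I interferons switch on, had 2.25, 2.91 and 3.45 FPKM at WT 0 h, 8.75, 16.4 and 11.8 at WT 24 h, 4.64, 3.30 and 4.04 at cKO 0 h and 14.9, 13.5 and 14.3 at cKO 24 h. Stat2, its partner, read 1.68, 1.80 and 2.08 FPKM at WT 0 h, 4.81, 6.72 and 6.72 at WT 24 h, 2.96, 2.88 and 2.80 at cKO 0 h and 8.26, 8.11 and 8.40 at cKO 24 h. For all 3 the 24 h libraries lay above the 0 h libraries in both genotypes, with a rise of 2.37 (SE 0.28, adjusted p = 0.00138) in WT and 2.41 (SE 0.21, adjusted p = 9.93e-05) in cKO for Irf7. Irf9 rose by 1.75 and 1.62, and Stat2 by 1.30 and 1.25, in WT and cKO. Irf1, a factor induced above all by IFN-γ and other inflammatory signals, differed from these. It had 13.8, 8.17 and 6.70 FPKM at WT 0 h, 6.26, 8.48 and 7.66 at WT 24 h, 2.68, 2.73 and 2.23 at cKO 0 h and 8.47, 6.28 and 8.94 at cKO 24 h. In WT the 0 h and 24 h libraries overlapped, with a change of -0.27 (SE 0.25, adjusted p = 0.443), while in cKO all 0 h libraries lay below all 24 h libraries and Irf1 rose by 1.32 (SE 0.15, adjusted p = 3.24e-04).

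Of the 5 sensors of foreign nucleic acid, 3 were called higher in WT and 2 in cKO, beside 10.3% and 11.3% of all genes tested. Zbp1 and Ifih1 in both genotypes and Dhx58 in WT passed the filter only through the 24 h libraries and had to differ. Ddx58, which codes for the RNA sensor RIG-I, had 1.26, 2.28 and 1.56 FPKM at WT 0 h, 3.02, 6.41 and 5.77 at WT 24 h, 2.17, 1.39 and 1.62 at cKO 0 h and 4.32, 4.47 and 5.97 at cKO 24 h. Zbp1, a sensor of Z-form nucleic acids, had 0, 0 and 1.23 FPKM at WT 0 h, 4.80, 6.10 and 3.11 at WT 24 h, 0, 0.428 and 0.0191 at cKO 0 h and 3.22, 2.95 and 2.72 at cKO 24 h. Eif2ak2 codes for PKR, the kinase that halts translation on double-stranded RNA, and had 3.84, 4.26 and 3.76 FPKM at WT 0 h, 8.92, 10.1 and 9.25 at WT 24 h, 4.40, 4.11 and 5.21 at cKO 0 h and 6.03, 6.52 and 8.97 at cKO 24 h. All 3 were called higher in WT, where the 24 h libraries did not overlap the 0 h libraries, and Ddx58 and Zbp1 were also called in cKO. The call of Ddx58 in WT was lost in 3 of the 6 fits that left out 1 library (adjusted p 0.0522 to 0.0649). Eif2ak2 changed by 1.07 (SE 0.14, adjusted p = 0.00173) in WT and by 0.54 (SE 0.16, adjusted p = 0.0240) in cKO, where its means differed by less than 2-fold. Of the other sensors, Ifih1 (MDA5) went from a mean of 0.423 ± 0.167 to 2.33 ± 1.04 FPKM in WT and from 0.238 ± 0.0442 to 1.71 ± 0.676 in cKO (SD, n = 3). Ifih1 and Dhx58 (LGP2) had an adjusted p under the threshold in both genotypes but stayed below the size needed for a call. For Dhx58 in cKO the adjusted p rose over the threshold in most fits that left out 1 library (0.0790 to 0.137). With libraries scaled to a common median it was 0.146.

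The antiviral effectors include the member with the highest level. Ifit3 had the highest mean over the 12 libraries of any member and read 5.51, 4.13 and 4.56 FPKM at WT 0 h, 10.2, 35.2 and 35.8 at WT 24 h, 4.80, 2.23 and 1.97 at cKO 0 h and 9.02, 10.4 and 8.68 at cKO 24 h. Ifit1, which blocks translation of RNA that lacks the cap marks of the host, had 1.73, 1.32 and 1.77 FPKM at WT 0 h, 5.87, 13.8 and 15.7 at WT 24 h, 0.811, 0.963 and 0.491 at cKO 0 h and 4.01, 3.46 and 5.69 at cKO 24 h. Both rose in both genotypes, and at WT 24 h replicates 2 and 3 stood far above replicate 1. The rise in WT was 2.11 (SE 0.43, adjusted p = 0.00998) for Ifit3 and 2.201 (SE 0.32, adjusted p = 0.00293) for Ifit1, and the rise in cKO 1.44 (SE 0.24, adjusted p = 0.00230) and 1.61 (SE 0.19, adjusted p = 3.89e-04). Rsad2, which codes for viperin, an enzyme that makes a chain-terminating nucleotide, had 0.249, 0.0422 and 0.251 FPKM at WT 0 h, 2.96, 6.97 and 5.69 at WT 24 h, 0.0318, 0.0873 and 0.105 at cKO 0 h and 1.18, 0.847 and 1.501 at cKO 24 h. It rose by 2.34 (SE 0.27, adjusted p = 0.00120) in WT, and in cKO its change of 1.01 (SE 0.16, adjusted p = 0.00151) came without a mean of 2 FPKM, so it was not called there. In both genotypes Rsad2 passed the filter only through the 24 h libraries and had to differ. Bst2 (tetherin), which holds budding virus at the cell surface, had 2.57, 1.71 and 1.14 FPKM at WT 0 h, 7.42, 17.4 and 14.6 at WT 24 h, 2.26, 1.04 and 3.43 at cKO 0 h and 9.39, 11.1 and 12.8 at cKO 24 h. Its libraries did not overlap between times, and its rise was 2.29 in WT and 1.96 in cKO. In the deposited tables Ifit1 shares its locus with 4 other genes, and Ifit3 has a close copy, Ifit3b, in the same cluster, so part of their reads could be split.

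The remaining effectors were not called in either genotype. Ifit2 sits beside Ifit3 and Ifit1 on chromosome 19 (GENCODE M21 positions chr19:34550694-34576419, chr19:34583531-34588731 and chr19:34640871-34650009, all on the forward strand). Its libraries overlapped between 0 h and 24 h in both genotypes, at 4.88, 4.69 and 3.38 FPKM at WT 0 h, 4.44, 4.89 and 3.74 at WT 24 h, 3.41, 3.02 and 3.12 at cKO 0 h and 2.72, 3.14 and 4.33 at cKO 24 h. Its change was 0.02 (SE 0.18, adjusted p = 0.950) in WT, with a 95% interval of -0.39 to 0.43, and 0.06 (SE 0.15, adjusted p = 0.780) in cKO, with an interval of -0.29 to 0.41. With libraries scaled to a common median the sign of both turned negative. Cmpk2, a mitochondrial nucleotide kinase that lies next to Rsad2 on chromosome 12, changed by 0.61 (SE 0.30, adjusted p = 0.155) in WT and 0.51 (SE 0.16, adjusted p = 0.0312) in cKO. Mx2 changed by 0.86 (SE 0.34, adjusted p = 0.0940) in WT, where replicate 1 stayed at 0.836 FPKM beside 3.19 and 3.56, and by 1.02 (SE 0.21, adjusted p = 0.00593) in cKO. Mx1 stayed between 0.0137 and 0.769 FPKM in the 12 libraries and was not tested in any comparison.

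The Oas enzymes make the second messenger that switches on RNase L, and with their relatives Oasl1 and Oasl2 they stayed under 1 FPKM at 0 h in every library except for Oasl2. Oasl2 read 1.21, 2.56 and 1.118 FPKM at WT 0 h, 11.1, 18.8 and 20.4 at WT 24 h, 2.59, 1.27 and 1.59 at cKO 0 h and 11.8, 10.2 and 15.4 at cKO 24 h. It was among the 3 members with the highest mean, and rose by 2.76 (SE 0.28, adjusted p = 7.45e-04) in WT and 2.27 (SE 0.21, adjusted p = 1.28e-04) in cKO. Oas1a had 0.253, 0.106 and 0.125 FPKM at WT 0 h, 2.69, 3.67 and 4.55 at WT 24 h, 0.236, 0.437 and 0.0399 at cKO 0 h and 2.07, 1.59 and 2.95 at cKO 24 h. Oasl1 had 0, 0.0366 and 0.268 FPKM at WT 0 h, 1.72, 3.07 and 2.26 at WT 24 h, 0.288, 0 and 0 at cKO 0 h and 1.21, 1.501 and 1.25 at cKO 24 h. Both were called in WT, by 1.98 and 1.59, whereas in cKO their adjusted p passed (0.00117 and 0.00106) and their size did not. Oas1a, Oasl1 and Oas2 passed the filter only through the 24 h libraries in both genotypes and had to differ. Oas2 reached 1.16, 2.63 and 2.62 FPKM in WT and 0.676, 0.602 and 1.18 in cKO at 24 h, and Oas3 1.07, 0.926 and 0.845 and 0.195, 0.224 and 0.645. Oas1a has close paralogs in the same cluster of chromosome 5, such as Oas1g, and reads that both share could be split between them.

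The ISG15 pathway and its ubiquitin and ADP-ribose enzymes had all 7 members called higher in both genotypes, beside 10.3% of all genes tested in WT and 11.3% in cKO. Isg15, the ubiquitin-like tag itself, had 0.179, 0.927 and 0.0582 FPKM at WT 0 h, 5.84, 14.8 and 14.8 at WT 24 h, 1.22, 0.726 and 1.29 at cKO 0 h and 7.52, 4.59 and 8.81 at cKO 24 h. On the log2(FPKM + 1) scale it showed the largest rise of any member in WT, 3.16 (SE 0.37, adjusted p = 0.00132), and 1.91 (SE 0.22, adjusted p = 4.11e-04) in cKO. In WT Isg15 passed the filter only through the 24 h libraries and had to differ. Usp18, the protease that removes ISG15 and dampens the type I receptor, had 1.58, 2.87 and 3.63 FPKM at WT 0 h, 8.57, 17.9 and 16.7 at WT 24 h, 4.62, 2.84 and 4.97 at cKO 0 h and 8.41, 7.42 and 9.94 at cKO 24 h. Its rise was 2.04 (SE 0.31, adjusted p = 0.00352) in WT and 0.92 (SE 0.19, adjusted p = 0.00550) in cKO. For both genes the WT 24 h replicates 2 and 3 lay above all other libraries, and replicate 1 lay within the range of cKO at 24 h. Herc6, the ligase that attaches ISG15 in mice, had 1.098, 1.21 and 1.31 FPKM at WT 0 h, 3.23, 4.15 and 4.32 at WT 24 h, 0.996, 0.802 and 0.721 at cKO 0 h and 2.19, 2.95 and 3.59 at cKO 24 h. Trim25, a ubiquitin ligase implicated in RIG-I activation, had 2.503, 3.23 and 2.58 FPKM at WT 0 h, 5.39, 7.53 and 7.57 at WT 24 h, 3.09, 2.33 and 2.46 at cKO 0 h and 7.18, 6.05 and 6.63 at cKO 24 h. For this pair the 24 h libraries lay above the 0 h libraries in both genotypes, with rises of 1.15 and 1.08 for Herc6 and of 1.05 and 1.07 for Trim25, in WT and cKO.

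Parp9, Dtx3l and Parp14 complete that group. Parp14 had 0.913, 0.713 and 0.950 FPKM at WT 0 h, 4.04, 6.55 and 7.26 at WT 24 h, 0.949, 0.440 and 0.665 at cKO 0 h and 4.34, 3.54 and 5.70 at cKO 24 h. Parp9 had 0.707, 1.70 and 1.11 FPKM at WT 0 h, 3.40, 5.47 and 3.81 at WT 24 h, 1.84, 1.25 and 1.26 at cKO 0 h and 5.09, 5.07 and 5.28 at cKO 24 h. Dtx3l, which codes for the ubiquitin ligase partner of PARP9, had 1.45, 1.42 and 2.86 FPKM at WT 0 h, 3.21, 5.28 and 4.49 at WT 24 h, 1.84, 1.46 and 1.13 at cKO 0 h and 3.82, 4.17 and 5.16 at cKO 24 h. Their rises were 1.87, 1.27 and 0.89 in WT and 1.71, 1.34 and 1.125 in cKO, and each 24 h library lay above each 0 h library of its genotype. The call of Dtx3l in WT was lost in 4 of the 6 fits that left out 1 library (adjusted p 0.0574 to 0.103) and under both other scalings (0.0615 and 0.0873). Parp9 and Dtx3l overlap on opposite strands of chromosome 16 (chr16:35938470-35972605 forward and chr16:35926511-35939151 reverse), and whether fragments were assigned by strand is not given in the sources used here.

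The immunity-related GTPases and guanylate-binding proteins are families induced above all by IFN-γ and known for attacking pathogen vacuoles. They had 6 of the 7 members tested called higher in WT and 5 of 7 in cKO, beside 10.3% and 11.3% of all genes tested. Gbp5 in both genotypes and Gbp7 in WT passed the filter only through the 24 h libraries and had to differ. Irgm1 had 2.04, 1.86 and 2.40 FPKM at WT 0 h, 4.87, 7.66 and 6.13 at WT 24 h, 1.32, 1.07 and 1.32 at cKO 0 h and 5.13, 5.94 and 8.04 at cKO 24 h. Irgm2 read 0.960, 0.898 and 1.51 FPKM at WT 0 h, 3.26, 3.38 and 3.76 at WT 24 h, 0.998, 0.908 and 0.9998 at cKO 0 h and 2.22, 1.84 and 2.81 at cKO 24 h. Igtp (Irgm3) had 2.33, 1.76 and 0.707 FPKM at WT 0 h, 3.24, 3.49 and 4.29 at WT 24 h, 1.57, 0.472 and 0.835 at cKO 0 h and 4.65, 3.32 and 7.23 at cKO 24 h. In WT the rises were 1.21, 1.08 and 0.89, with adjusted p values of 0.00353, 0.00408 and 0.0358. The call of Igtp in WT was lost in 5 of the 6 fits that left out 1 library (adjusted p 0.0611 to 0.0876) and with libraries scaled to a common median (0.0761). In cKO Irgm1 rose by 1.70 and Igtp by 1.62, and Irgm2 changed by 0.73 (SE 0.14, adjusted p = 0.00452) without a call for size. Irgm2 and Igtp are annotated on overlapping stretches of chromosome 11, and Ifi47, the fourth member, stayed under 1 FPKM in all 12 libraries (highest 0.808) and was not tested.

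Gbp2, Gbp3 and Gbp7 were called higher in both genotypes. Gbp2 had 5.09, 2.64 and 6.50 FPKM at WT 0 h, 7.15, 15.5 and 14.5 at WT 24 h, 1.4997, 1.05 and 1.71 at cKO 0 h and 9.39, 7.13 and 7.26 at cKO 24 h. Gbp3 had 0.811, 0.970 and 1.31 FPKM at WT 0 h, 4.60, 13.03 and 6.96 at WT 24 h, 0.538, 0.716 and 0.912 at cKO 0 h and 7.77, 8.01 and 7.71 at cKO 24 h. Gbp7 had 0.440, 0.347 and 0.530 FPKM at WT 0 h, 2.11, 2.59 and 3.11 at WT 24 h, 0.612, 0.510 and 0.399 at cKO 0 h and 2.43, 2.57 and 4.05 at cKO 24 h. Gbp3 showed the largest rises of the family, 2.08 (SE 0.32, adjusted p = 0.00340) in WT and 2.36 (SE 0.12, adjusted p = 1.33e-05) in cKO. The rise of Gbp2 in WT, 1.22 (SE 0.35, adjusted p = 0.0333), came with a small gap between the highest 0 h and the lowest 24 h library, and its adjusted p rose over the threshold in 4 of the 6 fits that left out 1 library (up to 0.110). Its rise in cKO was 1.88 (SE 0.15, adjusted p = 8.27e-05). Gbp5 changed by 1.116 (SE 0.24, adjusted p = 0.0127) and 1.21 (SE 0.19, adjusted p = 0.00169) without reaching a mean of 2 FPKM. These genes lie side by side on chromosome 3 and share sequence, so part of their reads could be split between them.

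The last 4 members have other roles. Xaf1, which antagonizes inhibitors of apoptosis, had 0.866, 1.88 and 1.87 FPKM at WT 0 h, 6.78, 13.2 and 11.3 at WT 24 h, 2.04, 1.19 and 1.53 at cKO 0 h and 4.204, 5.28 and 5.23 at cKO 24 h. Rtp4, a chaperone of receptor transport with antiviral activity, had 0.289, 0.397 and 0.540 FPKM at WT 0 h, 3.49, 4.30 and 8.27 at WT 24 h, 0.691, 0.296 and 0.374 at cKO 0 h and 3.68, 2.21 and 5.54 at cKO 24 h. Ifi35, a partner of NMI, had 2.08, 3.21 and 2.53 FPKM at WT 0 h, 7.72, 7.01 and 7.81 at WT 24 h, 3.89, 2.93 and 3.36 at cKO 0 h and 5.05, 5.81 and 7.24 at cKO 24 h. All 3 were called higher in WT, by 2.16, 2.105 and 1.25, and Xaf1 and Rtp4 in cKO, by 1.20 and 1.68. Rtp4 passed the filter only through the 24 h libraries in both genotypes and had to differ. Ifi35 changed by 0.67 (SE 0.15, adjusted p = 0.00777) in cKO, under the 2-fold needed. Ifi44 read 0.692, 2.64 and 1.53 FPKM in WT and 0.487, 0.789 and 1.08 in cKO at 24 h, from at most 0.190 FPKM at 0 h.

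**Figure D3:**
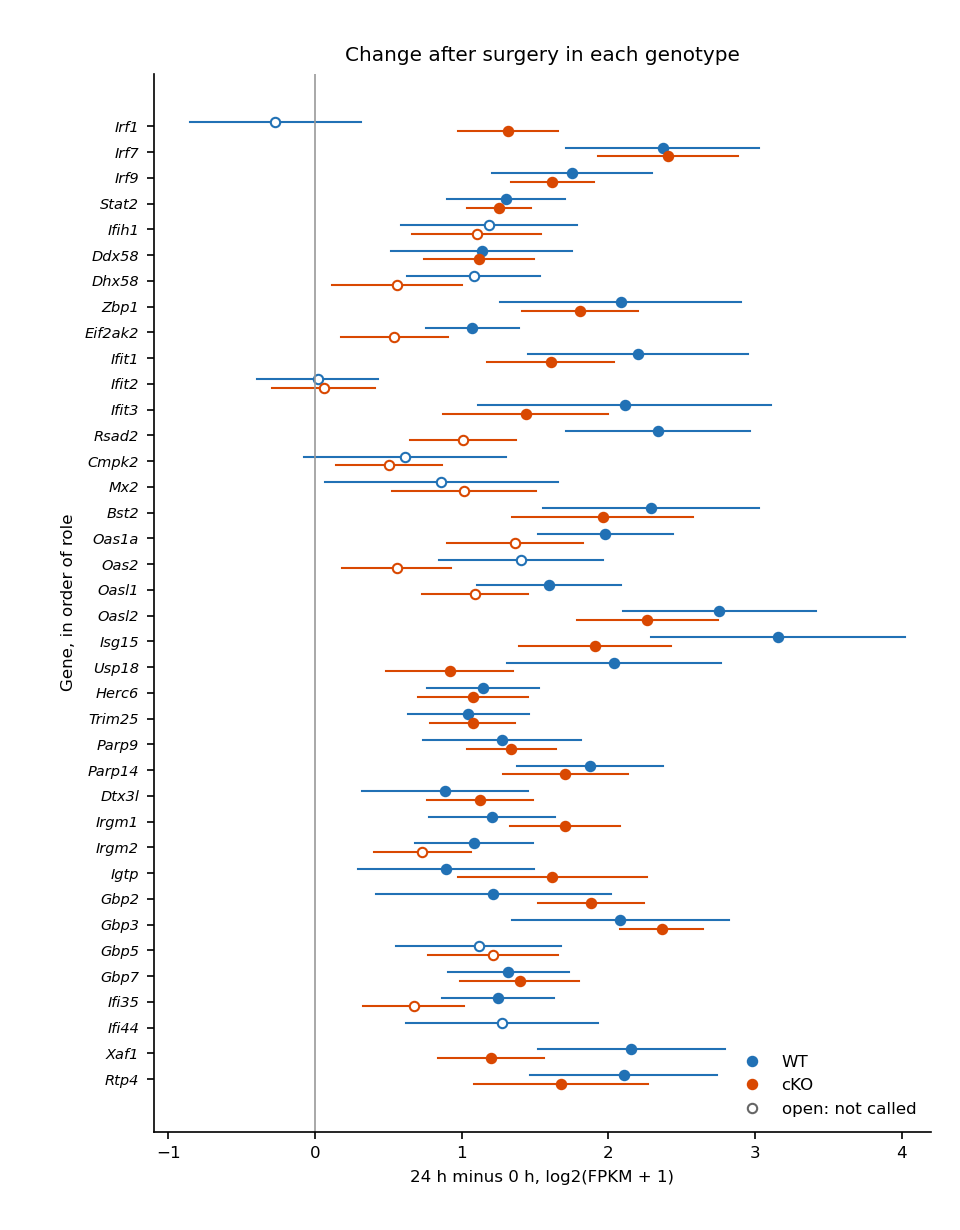
Change from 0 h to 24 h PCS on the log2(FPKM + 1) scale (x axis) for each member tested (y axis, in order of role), in WT (blue) and cKO (orange), with 95% intervals of limma-trend, 3 libraries per group. Filled points were called and open points were not. Irf1 lies at -0.27 in WT and 1.32 in cKO, Ifit2 lies at 0.02 and 0.06, and Rsad2 and Isg15 lie further right in WT than in cKO.

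Neutrophil genes and most macrophage genes tested rose over the same 24 h. In WT 6 of the 8 macrophage genes tested were higher and 2 lower at 24 h. The 2 were Csf1r (mean 2.11 FPKM at 0 h and 1.84 at 24 h) and C1qa (2.16 and 1.34). In cKO all 9 tested were higher. The summed level of 10 macrophage genes went from 8.95 to 17.4 FPKM at WT 0 h to 45.2 to 59.3 at WT 24 h, and from 9.90 to 16.6 to 44.3 to 67.9 in cKO. That of 9 neutrophil genes went from 0.511 to 0.795 FPKM to 45.5 to 64.5 in WT and from 0.459 to 1.41 to 11.99 to 34.8 in cKO. Of the macrophage genes tested, 4 of 8 were called higher in WT and 6 of 9 in cKO. Of the neutrophil genes 4 of 5 and 3 of 4 were, beside 10.3% and 11.3% of all genes tested. The neutrophil genes tested had 0 h means under 0.5 FPKM, so they passed the filter only through the 24 h libraries and had to differ. So did Ptprc and Itgam, among others, of the macrophage list. Lens fiber genes fell, with 6 of 6 called in both genotypes (medians -2.96 in WT and -3.11 in cKO). Of 6 lens epithelial genes, 5 were lower and 1 higher in WT, with 1 called lower. In cKO all 6 were lower, with 4 called. Over all genes tested 3.92% in WT and 3.77% in cKO were called lower. In cKO, 4 of 5 red blood cell genes (sums of 6.52 to 15.8 FPKM at 0 h and 87.4 to 195 at 24 h) and 10 of 10 photoreceptor genes were also called higher. The neutrophil markers Ly6g and Mpo were listed at 0 in all 12 libraries, and 7 markers of plasmacytoid dendritic cells and lymphocytes reached at most 0.649 FPKM in any library. The part of these cells in the rise of the interferon-stimulated genes was not tested.

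At 24 h PCS, the comparison of the genotypes asks whether the response differs when β8 integrin is absent. Rsad2 (chr12:26442746-26456452, reverse strand) was lower in cKO, and it was the only member called of the 39 tested, where 0.286% of 15366 genes were called lower and 3.37% higher. At an unadjusted p under 0.05, 11 of the 39 passed, as did 3137 of the 15366 genes. Its WT level was 4.43 times the cKO level on group means, a difference of -1.46 (SE 0.27, adjusted p = 0.0206), and the lowest WT library, at 2.96 FPKM, lay above the highest cKO library, at 1.501. The call was kept when WT replicate 1 was left out, and when any 1 of the other 5 libraries was left out the adjusted p rose over the threshold, to between 0.0526 and 0.0906, with differences from -1.57 to -1.25. Of the 39 members, 28 were lower and 11 higher in cKO, with a median difference of -0.29, beside 0.03 over all genes. Among the 28, Oas3 passed the filter only through WT and had to be lower. With libraries scaled to a common median 32 were lower and 7 higher, and without WT replicate 1 33 were lower and 6 higher.

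In 6 members, all 3 cKO libraries lay below all 3 WT libraries, namely Rsad2, Ifit1, Xaf1, Oas3, Oasl1 and Irgm2, and in Stat2 they lay above. Among all genes tested the shares were 9% and 17.5%. Oas3 passed the filter only through WT (mean 0.946 FPKM, against 0.354 in cKO), so it had to be lower. For Ifit1 the gap was narrow (5.69 FPKM in the highest cKO library against 5.87 in the lowest WT library), and the difference was -1.17 (SE 0.34, adjusted p = 0.0990). Ifit3 differed by -1.25 (SE 0.43, adjusted p = 0.154) and overlapped, since WT replicate 1 had 10.2 FPKM and cKO replicate 2 had 10.4. Xaf1 differed by -0.92 (SE 0.23, adjusted p = 0.0661). None of these 3 passed the adjusted p, which 0.644% of all genes did with a lower and 5.64% with a higher level in cKO.

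Replicate 1 was picked out for its low values in the members, so leaving it out had to raise the WT means of most. Without WT replicate 1, 5 members were called lower in cKO at 24 h, where 86 of 15439 genes were. They were Ifit3 at -1.82 (adjusted p = 0.00204), Rsad2 at -1.76 (adjusted p = 0.00532), Ifit1 at -1.57 (adjusted p = 0.00961), Xaf1 at -1.17 (adjusted p = 0.0121) and Usp18 at -0.94 (adjusted p = 0.0256). Leaving out any 1 of the other 5 libraries left 0 members called. The median difference was -0.45 without WT replicate 1 and ran from -0.44 to -0.23 without another library. Whether replicate 1 or replicates 2 and 3 better represent WT LCs cannot be told from 3 libraries.

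**Figure D4:**
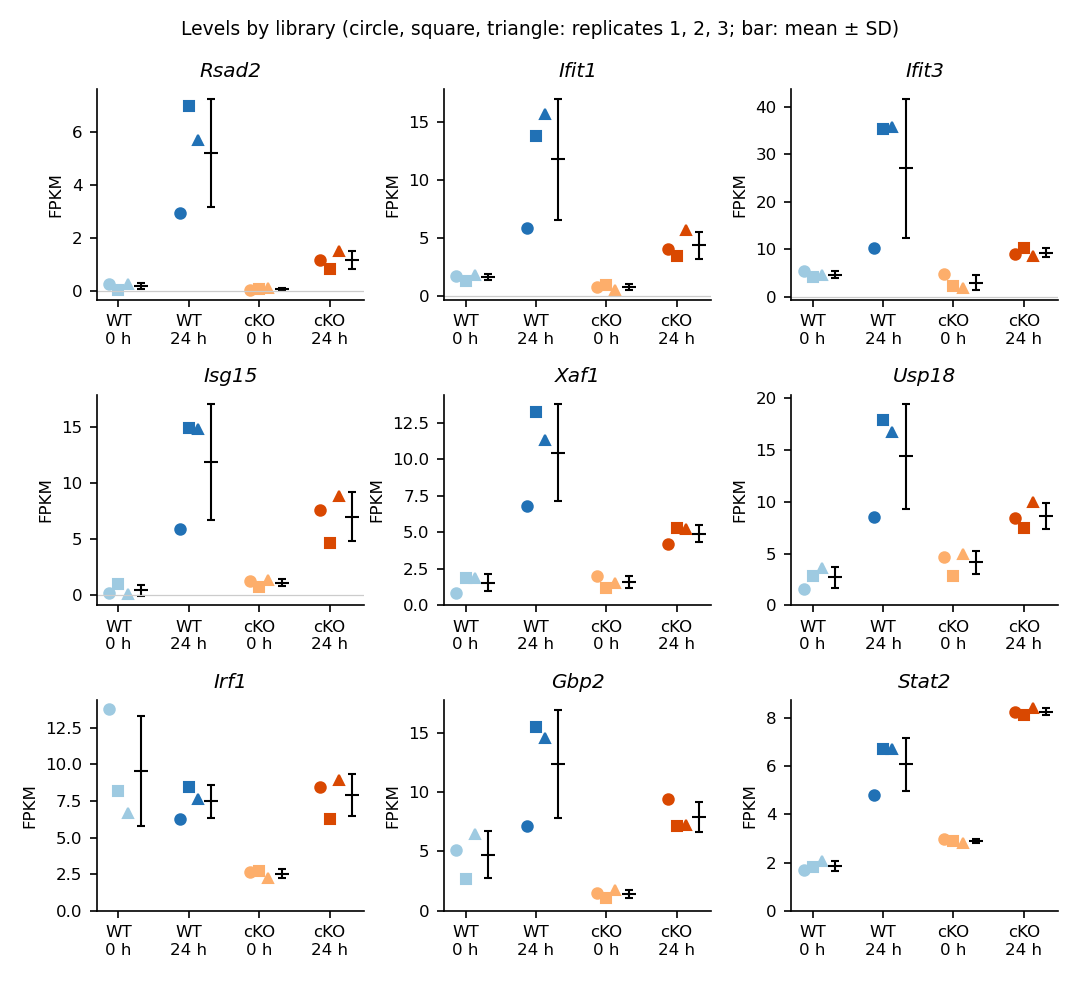
FPKM (y axis) of 9 members in each library of the 4 conditions (x axis), with circle, square and triangle for replicates 1, 2 and 3 and the mean ± SD beside them (n = 3). For Rsad2, Ifit1, Ifit3, Isg15, Xaf1 and Usp18 the WT 24 h replicates 2 and 3 lie above all other libraries and replicate 1 lies nearer to cKO, while Irf1 and Gbp2 are lower in cKO at 0 h and Stat2 is higher in cKO at both times.

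By role, the transcription factors lay above WT in cKO at 24 h, and for none of the 4 did the difference pass the test. It was 0.40 (SE 0.15, adjusted p = 0.196) for Stat2, 0.29 for Irf7 (95% interval -0.19 to 0.76), 0.23 for Irf9 (-0.26 to 0.73) and 0.07 for Irf1 (-0.34 to 0.47). Without WT replicate 1 Irf1 lay at -0.04 and the other 3 remained positive. The guanylate-binding proteins had a median difference of -0.02, with -0.53 for Gbp2 and 0.14 for Gbp7. All 5 Oas genes and all 7 effectors tested were lower in cKO, with medians of -0.53 and -0.29, and except for Rsad2 none passed the adjusted p. Of these genes, Oas3 had to be lower, as it passed the filter only through WT. For Ddx58 the difference was 0.00 with a 95% interval of -0.58 to 0.59.

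**Figure D5:**
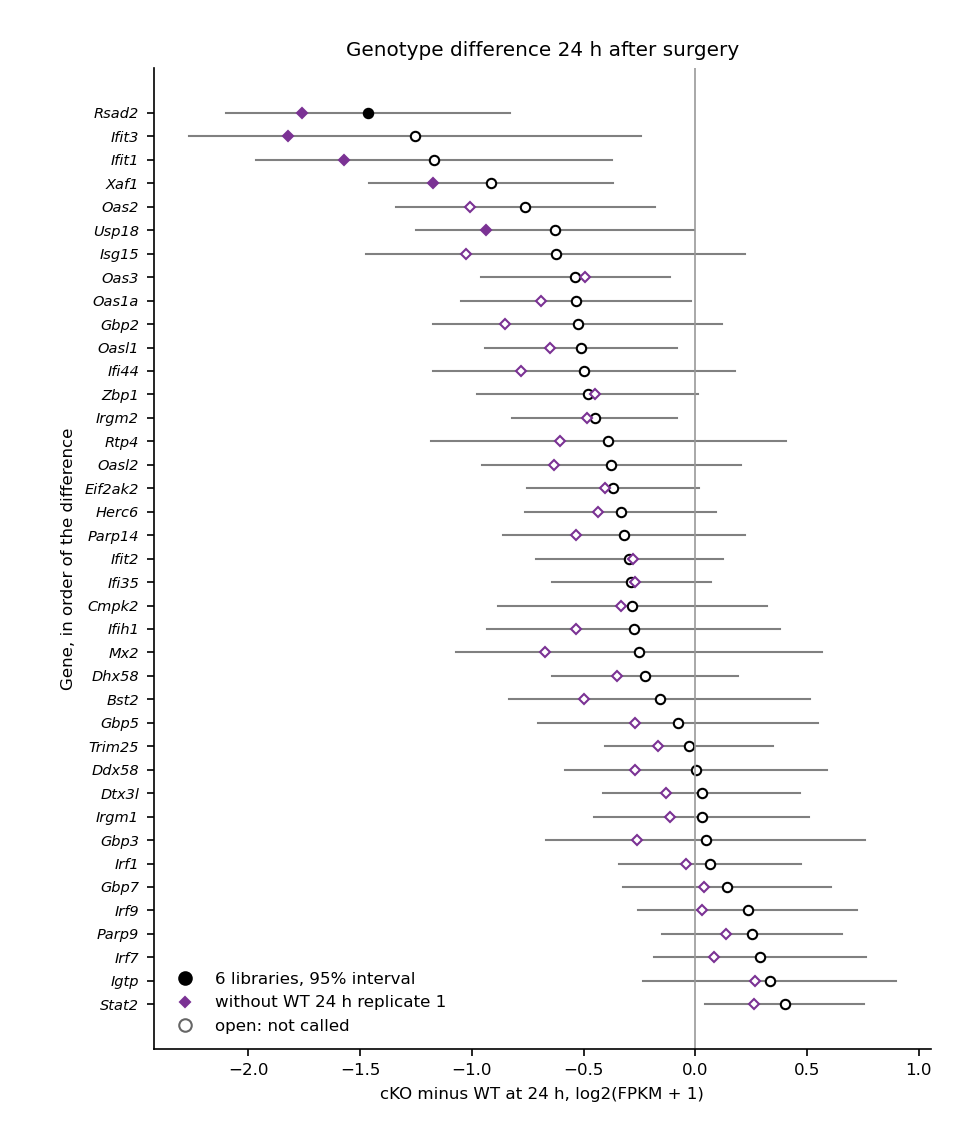
Difference between cKO and WT at 24 h PCS on the log2(FPKM + 1) scale (x axis) for the 39 members tested (y axis, in order of the difference), with 95% intervals of limma-trend from 6 libraries (circles), and the same difference without WT 24 h replicate 1 (diamonds). Filled symbols were called: Rsad2 from 6 libraries, and Rsad2, Ifit3, Ifit1, Xaf1 and Usp18 without that replicate.

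Other cell types moved with the genotype at 24 h. All 5 neutrophil genes tested were lower in cKO, with a median difference of -0.82 and 0 called, and the summed level of the neutrophil list did not overlap (11.99 to 34.8 FPKM in cKO, 45.5 to 64.5 in WT). That of the macrophage list did overlap (44.3 to 67.9 against 45.2 to 59.3). All 10 photoreceptor genes were called higher in cKO, by a median of 2.87. Vascular endothelial genes were higher in cKO (sums of 5.60 to 7.78 FPKM against 0.880 to 2.43, 1 of 3 called) and iris and ciliary pigment genes lower (13.3 to 24.9 FPKM against 28.7 to 34.8, 1 of 5 called). The part of these cells in the differences of the members was not tested.

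At 0 h PCS the same comparison gives the state of the capsules just after surgery. Irf1 (chr11:53770014-53778374, forward strand) and Gbp2 (chr3:142620602-142638008, forward strand) were lower in cKO and were the 2 members called of the 27 tested, where 1.18% of 14708 genes were called lower and 1.35% higher (2.75% and 4.18% by the adjusted p alone). Irf1 had a WT level 3.75 times that of cKO and a difference of -1.52 (SE 0.23, adjusted p = 0.0142), and its highest cKO library, at 2.73 FPKM, lay under its lowest WT library, at 6.70. Gbp2 had a WT level 3.33 times that of cKO and a difference of -1.19 (SE 0.26, adjusted p = 0.0372), with 1.71 FPKM in the highest cKO and 2.64 in the lowest WT library. The call of Irf1 was lost without cKO replicate 3, at -1.45 (adjusted p = 0.0716), and kept without any other library. That of Gbp2 was kept when WT replicate 2 was left out, at -1.49 (adjusted p = 0.00945), and lost when any other library was, with differences from -1.28 to -0.97 and an adjusted p of 0.0756 to 0.121.

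Of the 27 members 12 were higher and 15 lower in cKO at 0 h, with a median difference of -0.10, beside 0.02 over all genes. Of these 27, 3 passed the filter only through 1 genotype and had to differ. Without WT replicate 2, the library rich in retinal transcripts, the median was 0.028. Beside Irf1 and Gbp2, the cKO libraries lay below the WT libraries in Ifit1, Irgm1 and Herc6 and above them in Stat2, where 12.8% and 18% of genes tested were so separated. Stat2 differed by 0.45 (SE 0.13, adjusted p = 0.0756) at 0 h. Red blood cell genes moved with the genotype at this time (summed level of 5 genes 6.52 to 15.8 FPKM in cKO and 68.0 to 153 in WT, 4 called lower in cKO). Of 3 corneal stroma genes tested 2 were called lower in cKO. Of 3 corneal epithelium genes tested 1 was called higher, Aldh3a1, at 535 to 911 FPKM in cKO and 208 to 264 in WT. It made up most of the sum of that list (539 to 921 FPKM against 213 to 271). On group means Krt15 was higher in cKO (5.85 against 3.72 FPKM) and Krt5 lower (0.277 against 1.39). Lens epithelial genes summed to 492 to 561 FPKM in cKO and 381 to 399 in WT with 0 called. By the adjusted p alone, 3 of the 6 were higher in cKO and 0 lower. The part of these cells was not tested.

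The question whether the change over 24 h differed between genotypes was tested as an interaction over all 12 libraries, called at an adjusted p of at most 0.05. Irf1 and Rsad2 were called of the 38 members tested, where 6.83% of 15262 genes had a change that was higher in cKO and 2.56% a change that was lower. The change of Irf1 was higher in cKO by 1.59 (SE 0.31, adjusted p = 0.0112), and this held in all 12 fits that left out 1 library (adjusted p up to 0.0324). For Rsad2 the change was smaller in cKO, with a difference of -1.33 (SE 0.32, adjusted p = 0.0265), which held in 7 of 12 such fits (adjusted p up to 0.0658). Between genotypes, Irf1 was called at 0 h and Rsad2 at 24 h, and neither at both.

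Isg15 and Usp18 had the next largest interactions by size, -1.25 (SE 0.48, adjusted p = 0.132) and -1.120 (SE 0.40, adjusted p = 0.107), neither past the threshold. Without WT 24 h replicate 1, picked out for its low member values, 7 members were called with a smaller change in cKO. In that fit 284 of 15253 genes were so called, and the other 11 fits that left out 1 library called 0 to 2 members so. The 7 were Isg15, Rsad2, Usp18, Ifit3, Xaf1, Oas2 and Ifit1, at -1.65, -1.63, -1.43, -1.24, -1.21, -1.097 and -0.99. Irf1 was also called there, at 1.48. For Irf7, Irf9, Stat2, Ddx58, Herc6 and Trim25 the interaction lay between -0.14 and 0.04. Its 95% interval for Stat2, for example, was -0.44 to 0.35.

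The pathway around the members was read from lists of its ligands, receptors, signal factors and regulators. The ligands were at or near 0. Of 21 interferon genes, 17 were listed at 0 in all 12 libraries, among them Ifnb1 and Ifng. The others were Ifna5, Ifne, Ifnz and Ifnk, of which Ifnk, a keratinocyte interferon, was highest at 0.976, 0.652 and 0.772 FPKM in cKO and 0.482, 0.0978 and 0.626 in WT at 0 h and at most 0.156 FPKM in any library at 24 h. None passed the filter in a comparison with a 24 h group, so no ligand was tested there, and at an unknown depth a brief or low expression was not detectable.

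Receptor subunits were measured in every library. Ifnar1 had 6.39, 6.75 and 6.12 FPKM at WT 0 h, 11.4, 11.3 and 9.53 at WT 24 h, 6.11, 9.17 and 8.61 at cKO 0 h and 10.9, 9.60 and 11.9 at cKO 24 h. Ifnar2 had 7.33, 11.6 and 7.26 FPKM at WT 0 h, 12.1, 23.0 and 12.6 at WT 24 h, 8.91, 5.39 and 6.45 at cKO 0 h and 14.9, 16.1 and 19.0 at cKO 24 h. Ifnar2 rose in cKO by 1.17 (SE 0.17, adjusted p = 0.00122) and changed in WT by 0.77 (SE 0.28, adjusted p = 0.0709). Ifngr1 ranged from 6.83 to 15.01 FPKM and Ifngr2 from 7.74 to 14.8, without a call. Il10rb, a subunit shared by the receptors of IL-10 and the type III interferons, had 2.16, 2.00 and 1.26 FPKM at WT 0 h, 9.28, 10.3 and 7.73 at WT 24 h, 1.63, 2.35 and 0.954 at cKO 0 h and 7.34, 7.93 and 9.19 at cKO 24 h. It rose in both genotypes, by 1.85 in WT and 1.82 in cKO, and Ifnlr1, the subunit specific to type III interferons, stayed at or under 0.351 FPKM. At 24 h the 5 receptor genes tested differed between genotypes by -0.14 to 0.15, with 0 called and 0 at an unadjusted p under 0.05.

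Downstream of the receptors, Irf3 and Irf5 were called over time. Irf3, a factor that switches on interferon genes, had 4.12, 3.84 and 2.47 FPKM at WT 0 h, 10.7, 10.04 and 6.83 at WT 24 h, 5.25, 4.51 and 7.19 at cKO 0 h and 10.7, 7.13 and 9.38 at cKO 24 h. Irf5, a related factor of myeloid cells, had 0.385, 0.552 and 0.409 FPKM at WT 0 h, 1.92, 3.50 and 2.14 at WT 24 h, 0, 0.196 and 0.347 at cKO 0 h and 2.42, 0.874 and 2.23 at cKO 24 h. Both rose in WT, by 1.19 and 1.26. In cKO Irf3 changed by 0.60 (SE 0.19, adjusted p = 0.0314) and Irf5 by 1.23 (SE 0.25, adjusted p = 0.00537), without a call for size.

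Pattern recognition genes, which act upstream of the ligands, held 3 called higher and 1 lower of 9 tested in WT and 2 higher and 0 lower of 9 in cKO. Over all genes tested the shares called higher and lower were 10.3% and 3.92% in WT and 11.3% and 3.77% in cKO. Those named here and among the regulators were chosen after their values were seen, as they were called in at least 1 comparison. Myd88, the adaptor of most Toll-like receptors, had 4.19, 2.88 and 1.78 FPKM at WT 0 h, 7.34, 10.4 and 6.87 at WT 24 h, 1.27, 1.30 and 1.51 at cKO 0 h and 7.29, 4.43 and 8.70 at cKO 24 h. It rose by 1.25 in WT and 1.69 in cKO. Tmem173 (STING) had 1.75, 1.41 and 1.39 FPKM at WT 0 h, 4.08, 6.53 and 8.99 at WT 24 h, 1.32, 0.668 and 0.938 at cKO 0 h and 4.73, 4.12 and 5.31 at cKO 24 h. It rose by 1.53 and 1.54. Ikbke, a kinase that activates IRF3, rose in WT by 1.18. Tlr2, a receptor of bacterial lipoproteins, had 15.9, 9.09 and 14.7 FPKM at WT 0 h, 4.12, 9.20 and 5.07 at WT 24 h, 1.62, 2.37 and 2.49 at cKO 0 h and 3.27, 3.91 and 3.31 at cKO 24 h. At 0 h it was lower in cKO, with a difference of -2.15 (SE 0.22, adjusted p = 0.00303), and it fell in WT by 1.03 on the log2 scale. Mavs, the adaptor of RIG-I, had an interaction of -0.82 (SE 0.21, adjusted p = 0.0331) with no call within a genotype.

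Of the 9 negative regulators, Socs3, an inhibitor of JAK kinases, had 29.9, 7.03 and 10.4 FPKM at WT 0 h, 48.4, 64.9 and 47.7 at WT 24 h, 4.16, 3.16 and 3.51 at cKO 0 h and 37.2, 38.5 and 46.1 at cKO 24 h. It rose by 1.94 (SE 0.45, adjusted p = 0.0157) in WT and 3.17 (SE 0.12, adjusted p = 4.14e-06) in cKO. Tnfaip3 (A20), an inhibitor of NF-κB signals, had 25.6, 18.9 and 6.68 FPKM at WT 0 h, 8.27, 16.1 and 10.8 at WT 24 h, 3.19, 2.36 and 1.95 at cKO 0 h and 14.4, 12.7 and 12.98 at cKO 24 h. At 0 h it was lower in cKO, with a difference of -2.21 (SE 0.41, adjusted p = 0.0249), and it rose in cKO, by 2.05 (SE 0.14, adjusted p = 4.39e-05), while its change in WT was -0.38 (SE 0.45, adjusted p = 0.550). The interaction was called for Tlr2, at 1.54 (SE 0.36, adjusted p = 0.0226), and for Tnfaip3, at 2.43 (SE 0.53, adjusted p = 0.0168), both higher in cKO as for Irf1. Ptpn2, a phosphatase of STAT proteins, rose in cKO by 1.04, and Ptpn6 (SHP-1) rose in WT by 1.21. At 24 h PCS 0 of the 9 regulators were called between genotypes.

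A wider list of 54 interferon-induced genes outside the 41 members also rose over 24 h. In WT 22 of the 44 tested were called higher and 0 lower, with a median of 1.07, where 10.3% of all genes were called higher. In cKO 20 of 39 were called higher and 0 lower, with a median of 1.05, where 11.3% of all genes were called higher. Genes of the list that passed the filter only through the 24 h libraries had to differ, and they were not counted apart. The 5 largest in WT were Ifitm1 at 4.09, Ifi205 at 3.41, Slfn2 at 3.06, Mnda at 2.97 and Ifi204 at 2.91. Ifitm1, which blocks virus entry at the membrane, had 6.42, 7.07 and 3.14 FPKM at WT 0 h, 60.2, 104 and 189 at WT 24 h, 1.89, 0.431 and 1.29 at cKO 0 h and 74.5, 44.7 and 242 at cKO 24 h. In Ifitm1 the times did not overlap. The other 4 were under 1 FPKM in all WT 0 h libraries and at 6.75 FPKM or more in all WT 24 h libraries. Their 24 h values alone were enough to pass the filter. Between genotypes at 24 h, 35 of the 47 tested were lower and 12 higher in cKO, with a median of -0.32, and 1 was called. That gene, Trim30d, was higher in cKO, at 4.44, 4.37 and 6.14 FPKM against 1.03, 0.682 and 0.666 in WT, a difference of 1.73 (SE 0.17, adjusted p = 0.00223). At 0 h Ifitm1 and Ly6e were called lower in cKO, at -1.57 and -1.17, of 29 tested.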

How the data were processed

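RNA of LC capsules was made into libraries with a stranded pico-input total RNA kit. The submitters' processing notes name FastQC, cutadapt 1.12, TopHat2 2.1.0, Cuffdiff 2.2.1 and the builds mm10 and GRCm38.p5. The deposited values are FPKM per gene and library, as the authors computed them. The columns of the authors' own comparisons (log2 fold changes, p-values, q-values) and Cuffdiff's group values, and 8 columns of group means, were not used. FPKM hold no counts, so depth and counting error are unknown. The relative depth read from the lowest values was 0.865 to 1.08 between libraries. It is a rough estimate against 1 reference library, WT 0 h replicate 1. It rests on few of the genes compared, for example 113 of 3972 in WT 24 h replicate 3.

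The 4 tables list the same genes and hold identical values for a library that 2 of them share, and were joined on gene and locus. Each comparison used limma-trend 3.58.1 (R 4.3.3) on log2(FPKM + 1), on the libraries of the groups compared, for genes whose mean reached 0.5 FPKM, with Benjamini-Hochberg adjustment over all genes tested. Changes on this scale understate those of low genes. A gene was called at an adjusted p of at most 0.05, with group means over 2-fold and over 2 FPKM apart and at least 2 FPKM in 1 group. The interaction was called on the adjusted p alone. The fits were tested on simulated data. The joins and motif searches ran in Python 3.11.15 (pandas 2.3.3, numpy 2.4.6), the plots in matplotlib 3.10.9, and gene positions were taken from GENCODE M21 (GRCm38). The members and lists were chosen with earlier results of these data known. Members called in any comparison, and the 3 with the highest mean, were given in every library. The study describes 3 biological replicates per condition. Alternatives were other pseudocounts, filters, scalings, call rules and models, the replicate number as a block, and each library left out. A signal factor on the pathway lists is not reported here.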

Additional observations from a re-analysis of the deposited data

Results flagged for a closer look

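For 2 members the change from 0 h to 24 h PCS differed between genotypes by a test of the difference itself, the interaction of limma-trend over 12 libraries. These are 2 of 38 members tested, where 6.83% of 15262 genes were called with a higher and 2.56% with a lower change in cKO, so the members were not called more often than genes at large. For Irf1 the interaction was 1.59 (adjusted p = 0.0112), with the change higher in cKO, and it was called in 12 of 12 fits that left out 1 library. For Rsad2 the interaction was -1.33 (adjusted p = 0.0265), with the change lower in cKO, and it was called in 7 of 12 such fits. The adjusted p of Rsad2 was 0.207 with a pseudocount of 0.1 and 0.0593 with no filter on low values. No outlier test was run on groups of 3 libraries, and WT 24 h replicate 1 was picked out by its low values in the members.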

How the results depend on the processing

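The rise over 24 h kept its direction under every alternative run, with 23 to 34 members called in WT and 21 to 36 in cKO. The median change in WT was 2.24 with a pseudocount of 0.1, 1.65 with 0.5 and 1.53 for genes of at least 2 FPKM, and in cKO 2.15, 1.55 and 1.52, and 1.68 on FPKM rescaled to the same sum. At 24 h PCS the count of members called between genotypes was 0 with no filter, 3 in 1 fit over all groups and 0 to 5 when 1 library was left out. At 0 h PCS it was 0 with no filter, 4 on FPKM rescaled to the same sum and 0 to 2 when 1 library was left out. The median difference at 0 h turned to 0.17 for genes of at least 2 FPKM and to 0.028 without WT replicate 2 (range -0.13 to 0.028 when 1 library was left out), and was -0.36 on FPKM rescaled to the same sum. The interaction was called for 1 member with a pseudocount of 0.1, with no filter or for genes of at least 2 FPKM, and for 1 to 8 when 1 library was left out. With no filter and with higher filters the set of genes tested differs by construction, and otherwise the cause was not tested. On FPKM rescaled to the same sum, all genes called split into 3587 higher and 393 lower over time in cKO, 1806 and 834 in WT, 97 and 782 between genotypes at 0 h, and 2328 and 100 for the interaction (1043 and 390 as deposited). Of 1183 alternative values for 75 results on single genes, 1111 kept their side of the threshold, 72 lost it (11 of them with no filter and 6 on FPKM rescaled to the same median) and 0 reversed. The same replicate numbers in different groups did not pair the libraries (correlation of deviations -0.218 to 0.0813). With the replicate number as a block, 27 and 24 members were called over time in WT and cKO, 1 and 2 between genotypes at 24 h and 0 h and 2 for the interaction, and 3 results on single genes lost their adjusted p (Gbp2 and Igtp in WT and Dhx58, not called before, in cKO over time). Depth is unknown from FPKM, so no floor can be set for genes listed at 0.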
